A study of Danio rerio with 6 samples.

Results

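The plasma of a vertebrate is filled largely by the liver. Hepatocytes secrete carriers of hormones, metals and lipids, the zymogens and inhibitors of the clotting cascade, most of the complement system and a large share of the apolipoproteins. The transcription factor Hnf4a is known, mainly from mammals, as a driver of many of these genes. In larval zebrafish the yolk syncytial layer and the intestine also make apolipoproteins, which package yolk and dietary lipid for export, so that these genes are not liver genes alone at this age.

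A list of 50 such genes was examined on arrays of whole zebrafish embryos at 5 dpf (days post-fertilization). Of these, 40 had a transcript cluster, the unit that the array summarizes as 1 value, that the platform annotation assigns to exactly that symbol. The series measured 19260 genes in this way. The 40 comprise 12 carriers, inhibitors and hepatocyte genes, 12 genes of clotting and its control, 8 apolipoproteins and 8 complement genes. When a gene had several clusters, the one with the highest mean was used. The genes *fabp10a*, *tfa*, *apoa1b* and *apoc1* appear only in clusters that carry several symbols, and *apoba*, *apoh* and *cfb* were matched to no cluster with 1 symbol, so these 7 were not analysed here. The remaining *itih3a*, *hpx* and *c6* are listed as synonyms of *itih3a.1*, *hpxa* and *c6.2*, which are described apart and are not counted among the 40.

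There were 3 arrays of *tdp1-/-* embryos and 3 of *tdp1WT* embryos, numbered 1 to 3 in each genotype and taken from independent experiments. The mutants carry CRISPR-Cas9 frameshift deletions in *tdp1*, whose product releases stalled topoisomerase 1 from DNA, and the line was kept in a mixed London wild-type and nacre background. All 6 arrays came from embryos held in 500 nM camptothecin (CPT), a topoisomerase 1 poison, overnight, and no untreated arrays are part of the comparison. How many embryos were pooled for an array is not stated for this experiment. The values are log2 values after RMA (robust multi-array average). The cluster of *tdp1* itself was lower in the mutants by a log2 fold change of -0.40 (95% confidence interval, CI, -0.79 to -0.01, limma). It did not pass an adjusted p of 0.05. Every *tdp1-/-* array was below every *tdp1WT* array, which held for 4.08% of all genes. None of the 40 genes lies on its chromosome, 17. Among markers of hepatocytes, *gc*, *ttr*, *fga* and *hnf4a* were above 4.77, the median over all clusters, on every array. The marker *serpina1* was not, with a mean of 4.65 over the 6 arrays. In their mean over the arrays, 37 of the 40 genes were above that median.

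Between CPT-treated *tdp1-/-* and *tdp1WT* embryos, the vitamin D binding protein gene *gc* was the only one of the 40 liver plasma protein genes called higher, at 1.39-fold, and none was called lower. A gene is called here when limma's moderated test gave an unadjusted p below 0.05 and the change exceeded 1.2-fold, the fold threshold of the study. By this rule 0.852% of all 19260 genes were higher and 1.04% were lower, so 1 gene of 40 is close to the background. The median log2 fold change of the 40 genes was 0.02, against -0.00 for all genes, with 21 of the 40 positive and 19 negative. In whole-embryo RNA, fewer hepatocytes and less RNA per hepatocyte cannot be told apart, and a difference in the secreted proteins themselves was not measured.

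After Benjamini-Hochberg adjustment over all 75212 clusters, limma placed 0 clusters under an adjusted p of 0.05 (0%), with the replicate number as a block (0%) or without it. The number of the 40 genes with an unadjusted p below 0.05 was 1. The intervals, taken gene by gene, nevertheless show how large a difference in array signal could be. These limits apply to array signal and need not bound the transcript. This holds in particular for dim clusters, such as those of *serpina1l* and *proca* with means of 3.82 and 2.31. In 39 of the 40 genes the 95% confidence interval lay wholly inside a 2-fold change in either direction, and in 27 inside a 1.5-fold change, so that 13 intervals reached beyond 1.5-fold. The standard errors of the log2 fold changes ranged from 0.13 to 0.31. Only the interval of the protease inhibitor gene *serpina1* reached beyond 2-fold. Over all genes 97.5% of the intervals lay inside 2-fold and 66.1% inside 1.5-fold, close to the shares of these genes.

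**Figure D1:**
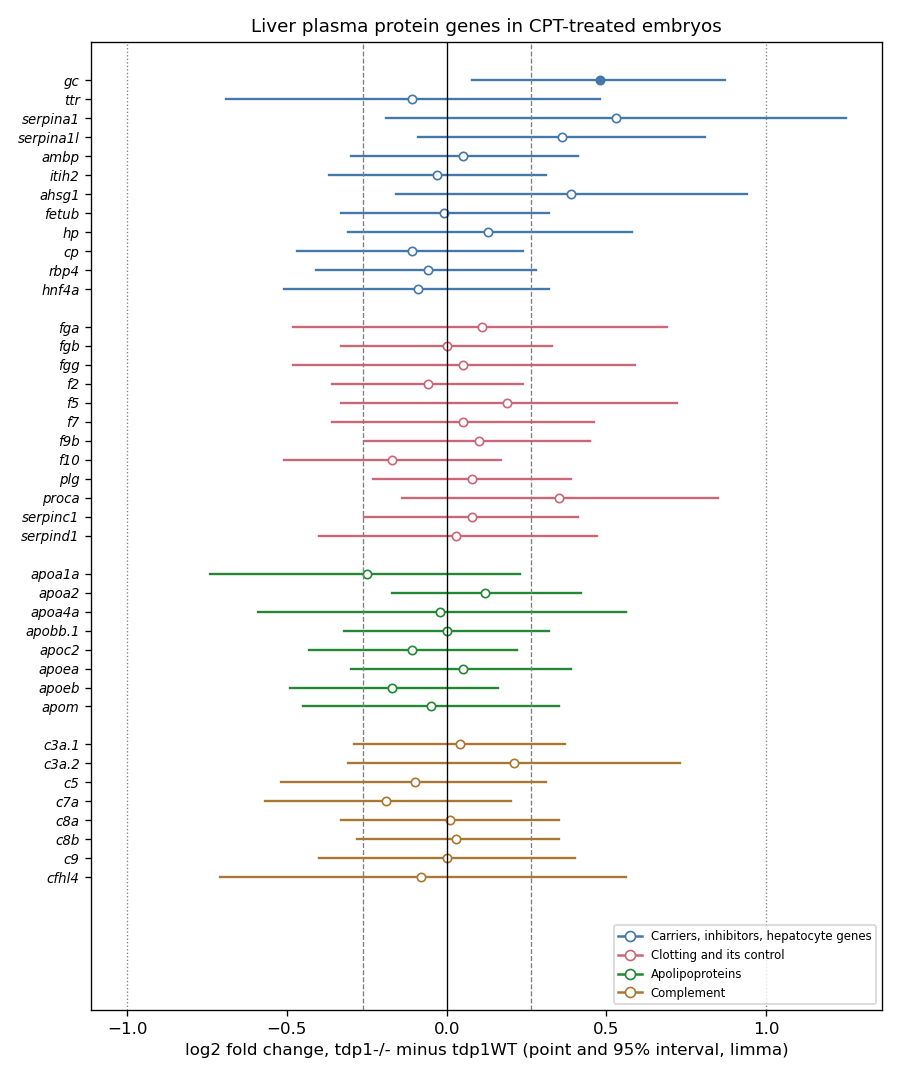
Log2 fold change of *tdp1-/-* minus *tdp1WT* for each of the 40 genes, grouped by role, with the 95% confidence interval from limma as a line. The filled point is *gc*, the only gene called. Dashed lines mark a 1.2-fold and dotted lines a 2-fold change, and only the interval of *serpina1* crosses a dotted line.

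The product of *gc* carries vitamin D metabolites in blood and scavenges actin. Its cluster measured 7.86, 8.11 and 7.67 on the *tdp1WT* arrays of replicates 1, 2 and 3 and 8.22, 8.33 and 8.52 on the *tdp1-/-* arrays. Every *tdp1-/-* array lay above every *tdp1WT* array, the lowest mutant and the highest control being 8.22 and 8.11. The means were 7.88 ± 0.22 and 8.36 ± 0.15 (log2 value, SD, n = 3 arrays each), and the log2 fold change was 0.48 (95% CI 0.08 to 0.87) with an adjusted p of 1 from limma. The exact permutation test, two-sided, gave p = 0.1, the smallest that 3 arrays against 3 allow. In the same-numbered pairs the log2 difference was 0.36, 0.22 and 0.85, so the experiment with the largest difference was replicate 3, which held the lowest *tdp1WT* and the highest *tdp1-/-* value. The call was lost without *tdp1-/-* replicate 3, *tdp1WT* replicate 3 or *tdp1WT* replicate 1, where the log2 fold change was 0.39, 0.37 and 0.47.

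The alpha-1 antitrypsin genes *serpina1* and *serpina1l* encode secreted inhibitors of serine proteases and lie next to each other on chromosome 20. Their clusters were dim, with means below the median over all clusters. That of *serpina1* measured 4.18, 4.17 and 4.81 in *tdp1WT* and 5.06, 4.31 and 5.38 in *tdp1-/-* embryos, a log2 fold change of 0.53 (95% CI -0.19 to 1.25). The genotypes overlapped, since *tdp1-/-* replicate 2 was below *tdp1WT* replicate 3, but within each experiment the mutant array was the higher. For *serpina1l* the values were 3.37, 3.88 and 3.68 in *tdp1WT* and 3.77, 4.23 and 4.00 in *tdp1-/-* embryos, a log2 fold change of 0.36 (95% CI -0.09 to 0.81). The differences in its pairs were 0.41, 0.35 and 0.33, while the arrays of each genotype spread over a wider range. Neither gene was called without the block. When limma blocked on the replicate number both were called higher, with intervals from 0.07 to 0.99 for *serpina1* and from 0.07 to 0.65 for *serpina1l* and adjusted p of 0.766 and 0.747. The second cluster of *serpina1*, with a mean of 3.08, had a log2 fold change of 0.47 (95% CI -0.04 to 0.97, limma) and was not called. The mean of the *serpina1* clusters was called higher. Each gene also appears in a cluster with several symbols, which was not analysed here. How far the probes of these 2 related genes share sequence was not analysed here, so they may not be separate observations.

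With the block, *gc*, *serpina1* and *serpina1l* were thus the 3 genes called higher and none of the 40 was called lower. Of all genes, 1.55% were called higher and 2.49% lower with the block. All 3 belong to the 12 carriers, inhibitors and hepatocyte genes. The other 9 of that group had log2 fold changes between -0.11 and 0.39, and the median of the 12 was 0.02.

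**Figure D2:**
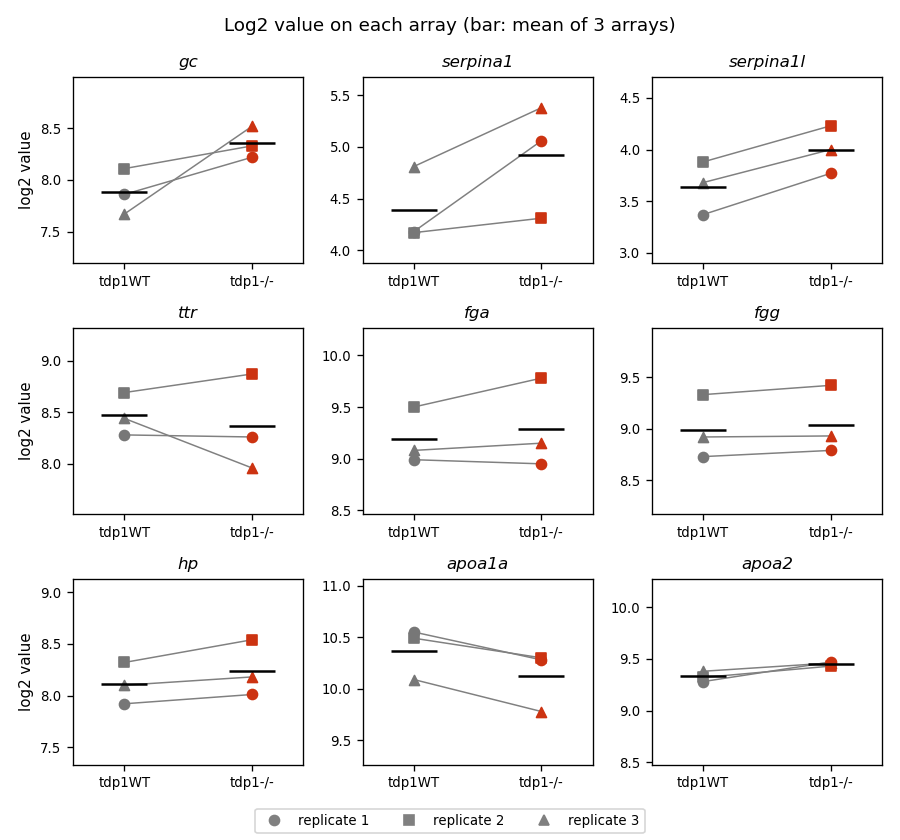
Log2 value on each of the 6 arrays for 9 of the genes. Lines join arrays with the same replicate number, marker shapes give that number, and black bars are the means of 3 arrays. All panels span the same range of 1.8 log2 units. In *gc* the genotypes do not overlap, in *serpina1l* each mutant array is above its partner, and in *fga* and *fgg* the replicate 2 arrays stand highest in both genotypes.

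Among the other carriers, the thyroid hormone carrier gene *ttr* measured 8.28, 8.69 and 8.44 in *tdp1WT* and 8.26, 8.87 and 7.96 in *tdp1-/-* embryos. Replicate 3 of the mutant was its lowest array and replicate 2 of the mutant its highest, so the mutants spanned the controls. The log2 fold change was -0.11 (95% CI -0.69 to 0.48, limma), and it had a positive sign without *tdp1-/-* replicate 3 (0.09). The retinol carrier gene *rbp4*, with 9.95, 9.72 and 9.92 in *tdp1WT* and 9.93, 9.66 and 9.82 in *tdp1-/-* embryos, differed by -0.06 (95% CI -0.41 to 0.28). Its pairs differed by 0.10 or less. The copper protein gene *cp* and the hemoglobin-binding haptoglobin gene *hp* had log2 fold changes of -0.11 (95% CI -0.47 to 0.24) and 0.13 (95% CI -0.31 to 0.58). The mutant of replicate 2 stood lowest of all arrays for *cp* and highest for *hp*.

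The fetuin genes *ahsg1* and *fetub*, whose products are secreted inhibitors of the cystatin superfamily, are neighbours on chromosome 22. The *fetub* cluster had a log2 fold change of -0.01, from 11.96, 11.87 and 11.85 in *tdp1WT* and 11.99, 11.74 and 11.92 in *tdp1-/-* embryos. That of *ahsg1* measured 6.82, 6.59 and 6.50 in *tdp1WT* and 7.31, 6.52 and 7.24 in *tdp1-/-* embryos. Mutant replicates 1 and 3 were above all controls and mutant replicate 2 was not, for a log2 fold change of 0.39 (95% CI -0.16 to 0.94) that was not called. Without *tdp1-/-* replicate 2 it was 0.64 and was called. The inter-alpha-trypsin inhibitor genes *ambp* and *itih2* differed by 0.05 and -0.03. The transcription factor gene *hnf4a* measured 6.30, 6.39 and 6.45 in *tdp1WT* and 6.61, 6.13 and 6.12 in *tdp1-/-* embryos. Its mutant arrays lay on both sides of the controls, and the log2 fold change was -0.09 (95% CI -0.51 to 0.32).

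No clotting gene was called in either direction, with or without the block, and their median log2 fold change was 0.07 with 9 of 12 positive. That median was -0.00 without *tdp1-/-* replicate 2, 0.01 without *tdp1WT* replicate 1, 0.03 without *tdp1WT* replicate 3, 0.11 without *tdp1-/-* replicate 1, 0.12 without *tdp1WT* replicate 2 and 0.04 with median centring. Fibrinogen, the substrate of the clot, is built from the chains of *fga*, *fgb* and *fgg*, which had log2 fold changes of 0.11, -0.00 and 0.05. The *fga* cluster measured 8.99, 9.50 and 9.08 in *tdp1WT* and 8.95, 9.78 and 9.15 in *tdp1-/-* embryos. The *fgg* cluster measured 8.73, 9.33 and 8.92 in *tdp1WT* and 8.79, 9.42 and 8.93 in *tdp1-/-* embryos. In these genes the array of replicate 2 was the highest and that of replicate 1 the lowest in each genotype, and the same-numbered arrays differed by at most 0.28. The *fgb* cluster had the same order over a smaller range, from 9.60 to 9.85.

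Nor was any zymogen of the cascade called. The prothrombin gene *f2* differed by -0.06 (95% CI -0.36 to 0.24), and the factor X gene *f10*, where prothrombin activation converges, by -0.17 (95% CI -0.51 to 0.17). The latter was 9.30, 9.17 and 9.18 in *tdp1WT* and 8.89, 9.21 and 9.05 in *tdp1-/-* embryos, with the mutant of replicate 1 standing lowest. The factor VII gene *f7* and the factor IX gene *f9b* differed by 0.05 and 0.10, and the factor V cofactor gene *f5* by 0.19. For *f5* the mutant was higher in all 3 pairs, by 0.29, 0.13 and 0.15, while the experiments spread from 7.82 to 8.57.

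Genes that hold the cascade back or dissolve the clot showed no called difference either. The antithrombin gene *serpinc1* and the heparin cofactor II gene *serpind1* differed by 0.08 and 0.03. The plasminogen gene *plg*, whose product dissolves fibrin, differed by 0.08 (95% CI -0.23 to 0.39). The protein C gene *proca* was dim, at 2.09, 2.18 and 2.13 in *tdp1WT* and 2.03, 2.62 and 2.81 in *tdp1-/-* embryos. Mutant replicates 2 and 3 were above the controls and mutant replicate 1 below them, for a log2 fold change of 0.35 (95% CI -0.14 to 0.85). Without *tdp1-/-* replicate 1 it was 0.58 and was called.

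The apolipoproteins had the most negative median of the 4 groups, at -0.03, with 6 of 8 negative, and none was called. The main protein of high-density lipoprotein, encoded by *apoa1a*, had the lowest log2 fold change of all 40 genes, -0.25 (95% CI -0.74 to 0.23). Its cluster measured 10.55, 10.49 and 10.09 in *tdp1WT* and 10.28, 10.30 and 9.78 in *tdp1-/-* embryos. The mutant was lower in each pair by 0.26, 0.19 and 0.31, but replicate 3 was low in each genotype and the genotypes overlapped. With the block the interval was from -0.55 to 0.04 and the gene was not called. The second *apoa1a* cluster differed by 0.11, the other direction.

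The *apoa2* cluster, for the second protein of high-density lipoprotein, measured 9.28, 9.32 and 9.38 in *tdp1WT* and 9.47, 9.43 and 9.46 in *tdp1-/-* embryos. Here every mutant array was above every control, by a small margin, for a log2 fold change of 0.12 (95% CI -0.17 to 0.42; exact permutation test, two-sided, p = 0.1). The arrays overlapped after a further quantile normalization and after centring each array on its median. The neighbouring *apoc2*, the activator of lipoprotein lipase, and *apoeb*, a ligand of lipoprotein receptors that macrophages and microglia also make, lie on the same chromosome, 16. They differed by -0.11 and -0.17, and *apoeb* was 10.82, 10.96 and 11.08 in *tdp1WT* and 10.85, 10.80 and 10.71 in *tdp1-/-* embryos. The genotypes of *apoeb* overlapped, with *tdp1WT* replicate 1 below *tdp1-/-* replicate 1, and its second cluster differed by 0.02.

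The *apobb.1* gene encodes the scaffold protein of very-low-density lipoprotein and chylomicrons, on which the export of yolk lipid depends. Its means differed least among the apolipoproteins, with 11.43, 11.40 and 11.45 in *tdp1WT* and 11.52, 11.28 and 11.46 in *tdp1-/-* embryos, and a log2 fold change of -0.00 (95% CI -0.32 to 0.32). The sphingosine-1-phosphate carrier gene *apom* differed by -0.05 and *apoea* by 0.05. The intestinal and yolk apolipoprotein gene *apoa4a* differed by -0.02 with a wider interval, from -0.59 to 0.56. Its SD was 0.22 in *tdp1WT* and 0.44 in *tdp1-/-* arrays (log2 value, n = 3 each).

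The 8 complement genes had a median log2 fold change of 0.01, with 4 positive and 4 negative, and none was called with or without the block. The third component, on which all complement pathways converge, is represented by *c3a.1* and *c3a.2*. The *c3a.1* cluster measured 9.47, 9.47 and 9.37 in *tdp1WT* and 9.54, 9.31 and 9.57 in *tdp1-/-* embryos, a log2 fold change of 0.04. For *c3a.2* it was 0.21 (95% CI -0.31 to 0.73), from 7.66, 7.66 and 7.02 in *tdp1WT* and 7.55, 7.49 and 7.92 in *tdp1-/-* embryos. The control of replicate 3 stood low and its mutant partner high, and without *tdp1WT* replicate 3 the log2 fold change was -0.01.

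No gene of the membrane attack complex, which pierces target cells, was called. The log2 fold change was -0.10 for *c5*, -0.19 for *c7a*, 0.01 for *c8a*, 0.03 for *c8b* and -0.00 for *c9*. Of these *c7a* was lower in all 3 pairs, with 7.31, 7.11 and 7.26 in *tdp1WT* and 7.11, 6.78 and 7.23 in *tdp1-/-* embryos, and the genotypes overlapped (95% CI -0.57 to 0.20). The *c8a* and *c8b* genes, neighbours on chromosome 2 whose products join in 1 complex subunit, each had an interval that ended at 0.35 or lower and began at -0.33 or higher. The factor H-like gene *cfhl4* was the most variable complement gene, between 4.36 and 5.30 in *tdp1WT* and between 4.74 and 5.12 in *tdp1-/-* embryos, with a log2 fold change of -0.08.

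The 3 genes matched through a synonym were not called. The log2 fold change was 0.13 for *itih3a.1*, 0.08 for *hpxa*, a hemopexin gene with a dim cluster, and 0.16 for *c6.2* (95% CI -0.17 to 0.49). The *c6.2* cluster measured 7.87, 7.80 and 7.66 in *tdp1WT* and 7.87, 7.88 and 8.06 in *tdp1-/-* embryos, and its genotypes met at replicate 1 without overlapping.

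Of the 40 genes, 2 had no overlap between genotypes with *tdp1-/-* higher, *gc* and *apoa2*, and none had this with *tdp1-/-* lower. Over all genes the shares were 3.64% higher and 4.08% lower. All 3 same-numbered pairs were higher in the mutant in 9 of the 40 genes and lower in 5, where all genes gave 14.4% and 16.8%. The median difference of the 40 genes within a pair was 0.03, 0.02 and 0.03 for replicates 1, 2 and 3. By group, the medians for replicates 1, 2 and 3 were 0.06, 0.04 and 0.06 in the carriers and -0.05, 0.07 and 0.08 in the clotting genes. They were 0.14, -0.13 and -0.14 in the apolipoproteins and 0.01, -0.21 and 0.08 in the complement genes. The sign was the same in all pairs in the carriers and not in the other groups. Even so, 4, 6 and 4 of the 12 carriers were negative in pairs 1, 2 and 3. The medians of all genes were -0.02, 0.01 and 0.0, and median centring moved the median log2 fold change of the carriers from 0.02 to 0.00.

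The same replicate number gave the highest array in each genotype in 20 of the 40 genes (50%), against 53.3% of all genes, and the groups were uneven in this. It did so in 8 of the 12 clotting genes, of which 7 were highest in replicate 2 (*fga*, *fgb*, *fgg*, *f5*, *f9b*, *plg* and *serpind1*). Among the carriers it was 10 of 12, with *ttr*, *serpina1l*, *ambp* and *hp* highest in replicate 2 and *itih2*, *ahsg1*, *fetub*, *cp* and *rbp4* in replicate 1. Among the apolipoproteins and the complement genes it was 1 of 8 each, *apoc2* and *c8b*. Of all 19260 genes, 2789 were highest in replicate 2 in each genotype. The 17 exocrine pancreas genes measured as markers of a neighbouring organ also stood high in replicate 2. Their median deviation from the gene means there was 0.18 in *tdp1WT* and 0.27 in *tdp1-/-*, where the clotting genes had 0.06 and 0.12. The other groups of the 40 were not high in both genotypes there. The carriers had -0.01 and -0.16, the apolipoproteins 0.1 and 0.0, and the complement genes 0.07 and -0.08. Outside the 40, 31 hepatocyte enzymes and transporters had 0.06 and -0.08 there. The 21 other clotting and fibrinolysis genes had -0.02 and 0.05, and all genes had -0.04 and -0.03. Intestine genes had 0.08 and -0.02, biliary genes 0.03 and -0.08, and 19 other complement genes 0.02 and 0.14. In replicates 1 and 3 the pancreas median was -0.11 and -0.14 in *tdp1WT* and -0.06 and -0.07 in *tdp1-/-*. The part of these cells in the pattern was not tested. These counts are a description of 3 experiments, and the labels do not say how the experiments differed.

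**Figure D3:**
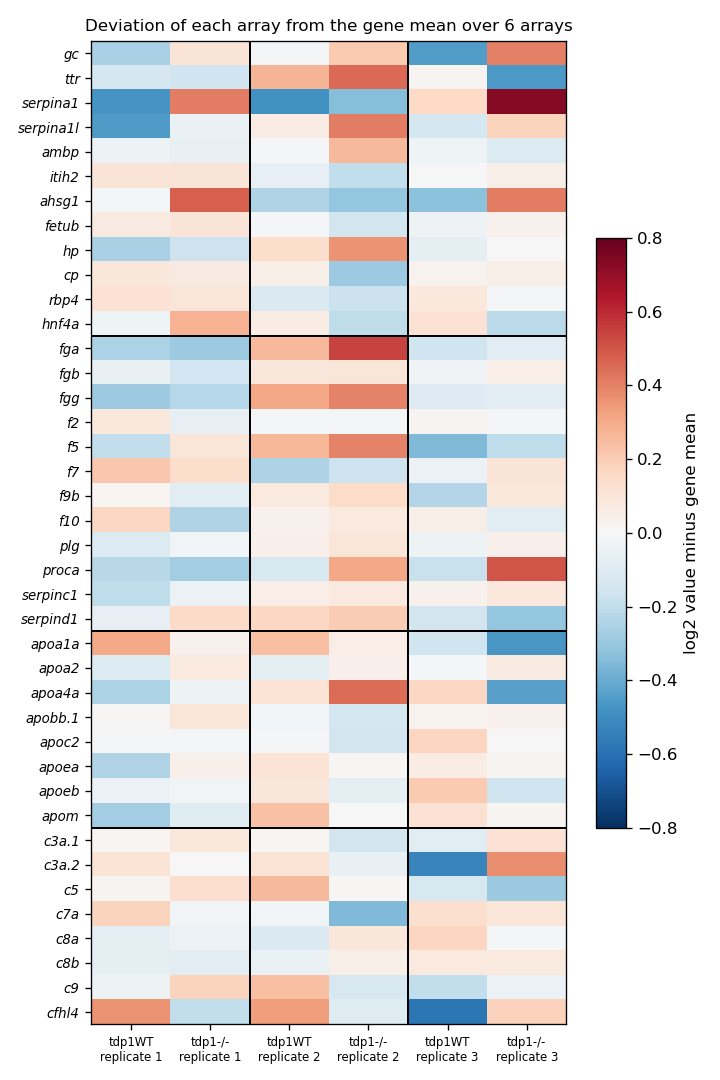
Deviation of each array from the mean of its gene over 6 arrays, in log2 units, for the 40 genes in rows by group. Arrays stand in same-numbered pairs, *tdp1WT* to the left of *tdp1-/-*. The values run from -0.58 to 0.73. The red block of replicate 2 in *fga*, *fgg* and *f5* covers both genotypes, whereas *gc* is blue in the controls of replicates 1 and 3 and red in every mutant.

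Genes around the plasma proteins were taken from lists of known genes of the liver and its neighbours, and few of them were called. Some lists share a gene, such as *cebpb* or *lipca*, and *hp*, described above, is also among the acute phase genes. Of 17 liver transcription factor genes none was called without the block (median -0.03). The smallest p-values belonged to *foxa3*, a forkhead factor of the gut and liver, with a log2 fold change of 0.25 and no overlap between the genotypes, and *hnf1bb* with -0.32. Over all genes 3.64% were higher without overlap and 4.08% lower. Of 31 hepatocyte enzymes and transporters none was called, 22 were negative and the median was -0.08. Among these *fah*, of tyrosine breakdown, had a log2 fold change of -0.29. Its second cluster, which is not the one counted, had -0.42 and met the call rule. The bile acid synthesis gene *cyp7a1* had 0.82, the largest of that list, with a wide interval from -0.30 to 1.93. It measured 5.78, 7.25 and 5.51 in *tdp1WT* and 6.62, 7.62 and 6.75 in *tdp1-/-* embryos, high in replicate 2 of each genotype. With the block it was called higher (95% CI 0.31 to 1.32, limma, adjusted p 0.739). The transcription factor gene *nr0b2a*, named after its values were seen, was called lower with the block. Its log2 fold change was -0.32 (95% CI -0.64 to -0.01, limma, adjusted p 0.77). With the block 1.55% of all genes were called higher and 2.49% lower. A link between *cyp7a1* and *nr0b2a* was not tested. The second *nr0b2a* cluster differed by 0.03.

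In the remaining lists 3 genes were called higher without the block, 1 in each of 3 lists, where 0.852% of all genes were called higher. The tissue factor gene *f3b*, the trigger of clotting, was 1.41-fold higher among 21 other clotting genes, although its second cluster differed by 0.17. The complement gene *c4*, with a dim cluster, was 1.36-fold higher among 19 other complement genes, and *scarb1*, the receptor that takes up lipid from high-density lipoprotein, was 1.43-fold higher among 24 genes of lipoprotein handling. The *scarb1* cluster measured 7.88, 7.73 and 7.90 in *tdp1WT* and 8.52, 7.92 and 8.61 in *tdp1-/-* embryos, without overlap. Of the uncalled genes with the next smallest p-values in these lists, *proza*, a protein Z gene, and *apoc4* were above 0 with 0.29 and 0.27, and *c3a.3*, a further third-component gene, was below with -0.32. The genotypes did not overlap in any of these, with the mutant arrays of *c3a.3* below the controls. Of 18 genes of the acute phase response, by which inflammation raises several plasma proteins, none was called without the block. The interleukin 6 receptor gene *il6r* and *irg1l* had 0.19 and -0.37, and the latter was called lower with the block. The 3 vitellogenin genes measured were uncalled, with *vtg6* at 0.19, *vtg2* at 0.16 and *vtg3* at -0.13. The clusters of *vtg6* and *vtg2* were dim, with means of 3.34 and 2.62.

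Among markers of other cells in these organs 1 gene was called, in the lower direction, as were 1.04% of all genes. The genes named have the smallest p-values of their list. Of 17 genes of the exocrine pancreas none was called, 12 were positive and 5 negative, and the median log2 fold change was 0.08. The genes *cela1.3*, with a dim cluster (mean 2.39), and *cel.1* had 0.26 and 0.16. Of 7 yolk syncytial layer genes none was called, 4 were positive and 3 negative, and they ranged from -0.21 to 0.21 (median 0.01), with *fabp1a* at -0.21 and *ctsla* at -0.20. None of 6 endocrine pancreas genes was called, with 3 positive and 3 negative over a range from -0.32 to 0.13 (median -0.01), *gcga* at -0.27 and *sst2* at -0.32. Nor was any of 7 biliary genes, with 4 positive and 3 negative (median 0.00), *sox9b* at -0.19 and *anxa4* at 0.10. Of 11 intestine genes 4 were positive and 7 negative, ranging from -0.34 to 0.13 (median -0.06). The gene called lower was *agr2*, a disulfide isomerase gene of mucus-producing cells. It measured 7.17, 7.09 and 7.02 in *tdp1WT* and 6.68, 6.90 and 6.67 in *tdp1-/-* embryos. Its second cluster differed by -0.07, and *anpepb.1*, an aminopeptidase gene, had -0.20. In *agr2* and *anpepb.1* every mutant array was below every control, as in 4.08% of all genes.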

How the data were processed

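Total RNA was the input to biotin labelling by the Affymetrix WT plus protocol, and the labelled samples were hybridized to Affymetrix arrays. The authors deposited log2 values, 1 per transcript cluster and array, made by RMA (background correction, quantile normalization between arrays, summarization of probes), which the submitters' processing notes also name. Of 75212 clusters, the platform annotation gave 20806 exactly 1 symbol, 855 several and 53551 none. Of the 20806, 20323 were matched by Entrez ID to RefSeq (GRCz12tu), used for names, chromosomes and gene order. Array medians were 4.66 to 4.87 and correlations between arrays (Pearson's r) 0.969 to 0.988.

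limma 3.58.1 in R 4.3.3 (lmFit, eBayes) was fitted to all clusters with genotype alone. The fit was also run on simulated data with independent noise and no effect of replicate number. There it called 99% of changes of 2 log2 units, 95% of changes of 1 and 5.19% of unchanged clusters. That run checks the fitting code and gives no error rate for these arrays. The methods state 3 independent experiments, and deviations of same-numbered arrays from their genotype means correlated with r of 0.203, 0.216 and 0.29, so a fit with the number as a block was run too. Separate clutches are not stated, and p-values measure only the spread between these arrays. In limma the spread of each cluster is also drawn toward that over all clusters. Thus *f2*, with an SD of 0.05 in *tdp1WT* and 0.04 in *tdp1-/-* arrays, had a standard error of 0.13. Alternatives were normalization, array weights, an intensity trend, a filter on dim clusters, the mean of a gene's clusters, and leaving out each array. Members and lists were chosen with earlier results of these data known. The rule for genes given on every array took *ttr*, *hnf4a*, every called member and the 2 of each group with the smallest p, while *fabp10a* and *apoa1b*, also named in it, were not analysed here. Other members shown on every array, and *nr0b2a*, were chosen after their values were seen. A planned display of promoters and proteins was not run. Exact tests used scipy 1.17.1.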

Additional observations from a re-analysis of the deposited data

How the results depend on the processing

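Of the 40 genes, 1 was called higher, 2 with the mean of all clusters of a gene (*gc* and *serpina1*) and 3 with the replicate block. Leaving out 1 array gave between 0 and 3. The share of all genes called was taken only for the fits with and without the block. Whether the other counts differ from that of all genes was therefore not tested. The count was 0 without *tdp1-/-* replicate 3, *tdp1WT* replicate 1 or *tdp1WT* replicate 3 (limma, unadjusted p below 0.05 and 1.2-fold). Without *tdp1-/-* replicate 2, *gc*, *serpina1* (0.83) and *ahsg1* (0.64) were called. Without *tdp1-/-* replicate 1, *gc* and *proca* (0.58) were called. None was called lower, and none passed an adjusted p of 0.05, under any of the 13 alternatives. The block changed no other call among the 40. Leaving out 1 array moved the median of the clotting genes between -0.00 and 0.12, the apolipoprotein median between -0.14 (without *tdp1WT* replicate 1) and 0.01, the log2 fold change of *ttr* between -0.36 and 0.09 and that of *c3a.2* between -0.01 and 0.31. The genes without overlap that were higher fell to 1, *gc*, after a further quantile normalization and after median centring, and the former left 1 lower gene without overlap, *f2*. It rose to 3, with *serpina1*, for the mean of all clusters of a gene. These counts, and those of pairs, were not recomputed with arrays left out. Their shares over all genes were taken only from the deposited values and not under the other settings. A further quantile normalization or median centring turned the sign of 1 of the 40 genes, *c8a*, and array weights that of 4, all with a log2 fold change of 0.05 or less. Leaving out 1 array turned between 4 and 12 signs. The cause was not tested. The filter on dim clusters removed *serpina1*, *serpina1l* and *proca*. Dim clusters and 3 arrays a genotype limit what could be seen.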
